A study of Mus musculus with 12 samples.

Results

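The alpha-arrestin genes Txnip, Arrdc4 and Arrdc3 and the transcription factor genes Mlxip, Mlxipl and Mlx were followed through mouse C2C12 myoblasts kept in 2 media with or without acetoacetate. The 6 genes were taken by symbol from a table of 23446 genes, and the set was chosen by the measured Txnip difference between the media. Levels between media are therefore given as a description, without a test of the 6 genes. C2C12 is an established mouse myoblast line that forms myotubes in differentiation medium. The 4 groups of 3 libraries were DM-AA (differentiation medium, acetoacetate for 12 h), DM-PBS (differentiation medium, PBS), GM-AA (growth medium, acetoacetate for 12 h) and GM-PBS (growth medium, PBS). The glucose and serum content of the media is not given in the sources used here.

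Txnip and Arrdc4 encode alpha-arrestins, adaptor proteins that recruit ubiquitin ligases of the NEDD4 family to membrane cargo. TXNIP binds thioredoxin and lowers glucose uptake by promoting removal of the glucose transporters GLUT1 and GLUT4 from the cell surface, and ARRDC4 also restrains glucose uptake. Their transcription is known to follow glucose 6-phosphate, which brings MondoA (encoded by Mlxip) or its relative ChREBP (encoded by Mlxipl) to DNA as a dimer with MLX. These dimers bind paired E-boxes, called carbohydrate response elements. ARRDC3 is a related arrestin known for handling the beta2-adrenergic receptor, and it is described here beside the other two. In skeletal muscle MondoA is the main glucose-responsive partner of MLX, whereas ChREBP is best known from liver and fat.

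The 250 bases before the transcription start are shown for the 3 arrestin genes, because the paired E-box of this window separates Txnip from the other two. The sequences are RefSeq promoter windows on GRCm38.p6, in which all 6 genes had at least 1 window (9 windows in all). Txnip lies on the plus strand (window chr3:96557707-96557956), Arrdc4 on the minus strand (chr7:68749239-68749488) and Arrdc3 on the plus strand (chr13:80883134-80883383, the most upstream of its 3 windows). Capitals mark a pair of E-boxes, each CACGTG with up to 1 mismatch, with 5 bases of any kind between them, a single exact CACGTG, and CCAAT on either strand, which reads ATTGG on the strand shown.
Txnip: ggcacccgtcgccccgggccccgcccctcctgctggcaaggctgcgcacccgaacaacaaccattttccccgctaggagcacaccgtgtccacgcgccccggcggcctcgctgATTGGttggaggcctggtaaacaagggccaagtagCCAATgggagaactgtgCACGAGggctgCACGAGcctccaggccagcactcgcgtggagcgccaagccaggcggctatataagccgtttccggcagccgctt
Arrdc4: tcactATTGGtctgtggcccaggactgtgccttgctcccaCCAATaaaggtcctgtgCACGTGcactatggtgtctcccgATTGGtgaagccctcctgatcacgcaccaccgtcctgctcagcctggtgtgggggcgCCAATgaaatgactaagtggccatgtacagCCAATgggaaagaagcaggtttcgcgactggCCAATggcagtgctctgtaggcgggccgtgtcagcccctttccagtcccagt
Arrdc3: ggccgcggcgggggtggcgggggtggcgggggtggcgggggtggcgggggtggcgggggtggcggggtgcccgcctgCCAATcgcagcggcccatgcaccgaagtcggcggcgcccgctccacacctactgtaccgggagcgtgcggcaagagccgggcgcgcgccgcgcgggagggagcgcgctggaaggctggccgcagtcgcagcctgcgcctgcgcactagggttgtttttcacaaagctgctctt
Txnip held 1 pair, CACGAG and CACGAG, beginning 85 bases before the start, and 2 CCAAT boxes. Arrdc4 held no such pair, 1 exact CACGTG beginning 193 bases before the start, and 6 CCAAT boxes. Arrdc3 held neither kind of E-box in any of its windows and had 1 CCAAT in the window shown. The most upstream Mlxipl window and the Mlx window each held 1 exact CACGTG. The pair stood in 0.329% of 32851 RefSeq windows, the exact CACGTG in 6.02% and CCAAT in 33.8%, and 0.0578% held at least 6 CCAAT boxes. An exact CACGTG counted as a single box whether or not it was also part of a pair. A match is a match of letters, and a window without one says nothing about sites elsewhere.

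Between 7959519 and 9893564 reads per library were assigned to genes. The myoblast genes Myod1, Myf5, Pax7, Des, Cdh15 and Myog were all detected, and their summed level was 2420 to 2660 CPM in DM-AA, 2130 to 2160 CPM in DM-PBS, 2140 to 2220 CPM in GM-AA and 1880 to 1940 CPM in GM-PBS (counts per 1000000 reads assigned to genes). Genes of other cells were near 0, with sums of at most 1.35 CPM for 5 adipocyte genes (2 at 0 in every library), 4.16 CPM for 5 immune genes (1 at 0) and 1.86 CPM for 5 endothelial genes (1 at 0). The myoblast sum was mostly Des, which averaged 1789 CPM in DM-AA, 1547 CPM in DM-PBS, 1695 CPM in GM-AA and 1451 CPM in GM-PBS. With acetoacetate the sum was higher in both media. In differentiation medium 4 of the 6 genes were higher and 0 lower, where 12.6% of all tested genes were higher and 13.8% lower. In growth medium 4 were higher and 1 lower, where 9.76% of all tested genes were higher and 11% lower. The lower one was Myod1, at 178 ± 11.7 CPM in GM-AA and 225 ± 7.88 CPM in GM-PBS (SD, n = 3 each; log2 fold change -0.34 ± 0.049, adjusted p = 3.52e-06, edgeR's quasi-likelihood test with Benjamini-Hochberg adjustment). The Myog call in growth medium (0.35 ± 0.13, adjusted p = 0.0489) was lost without DM-AA replicate 2, DM-PBS replicate 1, GM-AA replicate 2 or 3, or any GM-PBS replicate, with adjusted p from 0.0504 to 0.275. The part of these genes in the differences below was not tested. In RNA of a whole dish, fewer cells of a type and less RNA per cell cannot be told apart. Whether the 3 libraries of each group stand for separate cultures is not stated in the labels, so p-values measure the spread between these libraries, which may be technical.

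Within each group the 6 genes kept steps of level, compared as RPKM (reads per kilobase of gene length and per 1000000 reads). Per the file header, gene length is the union of all possible exons, so these are not levels per transcript. In differentiation medium Txnip stood first, followed by Mlx, Mlxip, Arrdc3, Arrdc4 and Mlxipl. Mlx led in growth medium. Mlxip, Arrdc3 and Txnip came after it with acetoacetate, whereas Arrdc3, Mlxip and Txnip came after it with PBS, and Arrdc4 and Mlxipl were again last. In every group the ranges of neighbouring genes in this order did not overlap, although Mlxipl rested on 4 reads over all 12 libraries.

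Txnip was high in differentiation medium with or without acetoacetate and low in growth medium, where acetoacetate raised it. Its level was 20.0, 22.9 and 21.0 RPKM in DM-AA and 21.1, 20.0 and 23.2 RPKM in DM-PBS. In growth medium it was 3.66, 4.15 and 4.63 RPKM in GM-AA, against 2.14, 2.19 and 1.91 RPKM in GM-PBS. The 2 differentiation groups overlapped, every GM-AA library lay above every GM-PBS library, and both growth groups lay below all differentiation libraries. Behind these levels were 701 to 805 reads per library in DM-AA, 704 to 904 in DM-PBS, 141 to 174 in GM-AA and 70 to 83 in GM-PBS. By CPM, 16.4% of all tested genes had every GM-AA library above every GM-PBS library. Between media, 29.7% had every DM-PBS library above every GM-PBS library, and 28.6% had every DM-AA library above every GM-AA library.

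Arrdc4, the closest functional relative of Txnip among the members, was scarcely transcribed but followed the same order between media. It had 10, 14 and 18 reads in DM-AA, 13, 9 and 8 reads in DM-PBS, 2, 4 and 2 reads in GM-AA, and 3, 3 and 5 reads in GM-PBS. The mean level was 0.280 ± 0.0768 RPKM in DM-AA, 0.187 ± 0.0258 RPKM in DM-PBS, 0.0498 ± 0.0217 RPKM in GM-AA and 0.0701 ± 0.0230 RPKM in GM-PBS (SD, n = 3 each). The media did not overlap in CPM, while acetoacetate and PBS libraries overlapped within each medium. Over the summed reads of a group, the level was 1.73 CPM (exact Poisson 95% interval 1.24 to 2.33) in DM-AA, 1.15 CPM (0.778 to 1.65) in DM-PBS, 0.309 CPM (0.133 to 0.608) in GM-AA and 0.429 CPM (0.214 to 0.767) in GM-PBS. These intervals cover counting error only. Arrdc4 passed the expression filter through differentiation libraries alone, 4 of which reached the required 1.2 CPM. Differentiation libraries lay above growth libraries in CPM for 29.7% of all tested genes with PBS and 28.6% with acetoacetate.

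Arrdc3 ran the other way. It had 4.20, 2.96 and 3.19 RPKM in DM-AA and 5.53, 5.53 and 5.40 RPKM in DM-PBS. In growth medium it had 5.43, 5.29 and 5.14 RPKM in GM-AA, against 6.76, 7.77 and 7.92 RPKM in GM-PBS. Acetoacetate libraries lay below PBS libraries in both media, and DM-PBS and GM-AA overlapped between the highest group, GM-PBS, and the lowest, DM-AA. The means were 3.45 ± 0.658, 5.48 ± 0.0747, 5.28 ± 0.147 and 7.48 ± 0.628 RPKM in DM-AA, DM-PBS, GM-AA and GM-PBS (SD, n = 3 each), on 152 to 424 reads per library. By CPM, acetoacetate libraries lay below PBS libraries for 20.2% of all tested genes in differentiation medium and 17.6% in growth medium.

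Among the transcription factors, Mlxip and Mlx were present at nearly flat levels and Mlxipl was close to undetected. Mlxip, which encodes MondoA, averaged 6.43 ± 0.0626 RPKM in DM-AA, 6.75 ± 0.514 RPKM in DM-PBS, 6.05 ± 0.436 RPKM in GM-AA and 6.18 ± 0.208 RPKM in GM-PBS (SD, n = 3 each), and all 4 groups overlapped. Mlx, the shared dimer partner, averaged 9.43 ± 0.333 RPKM in DM-AA, 9.61 ± 1.59 RPKM in DM-PBS, 10.6 ± 0.664 RPKM in GM-AA and 9.50 ± 0.428 RPKM in GM-PBS (SD, n = 3 each). The spread of Mlx in DM-PBS came from 1 library at 11.4 RPKM beside 8.49 and 8.91 RPKM. For Mlx every DM-AA library lay below every GM-AA library, an order that 28.8% of all tested genes had by CPM. Mlxipl, which encodes ChREBP, had 0 reads in all 6 differentiation libraries, 1 read in each GM-AA library and 1 read in 1 GM-PBS library. No group of libraries held more than 3 Mlxipl reads, the count that a group at 0 still allows (0.123 CPM in DM-AA and 0.115 CPM in DM-PBS), so no fold is given.

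**Figure D1:**
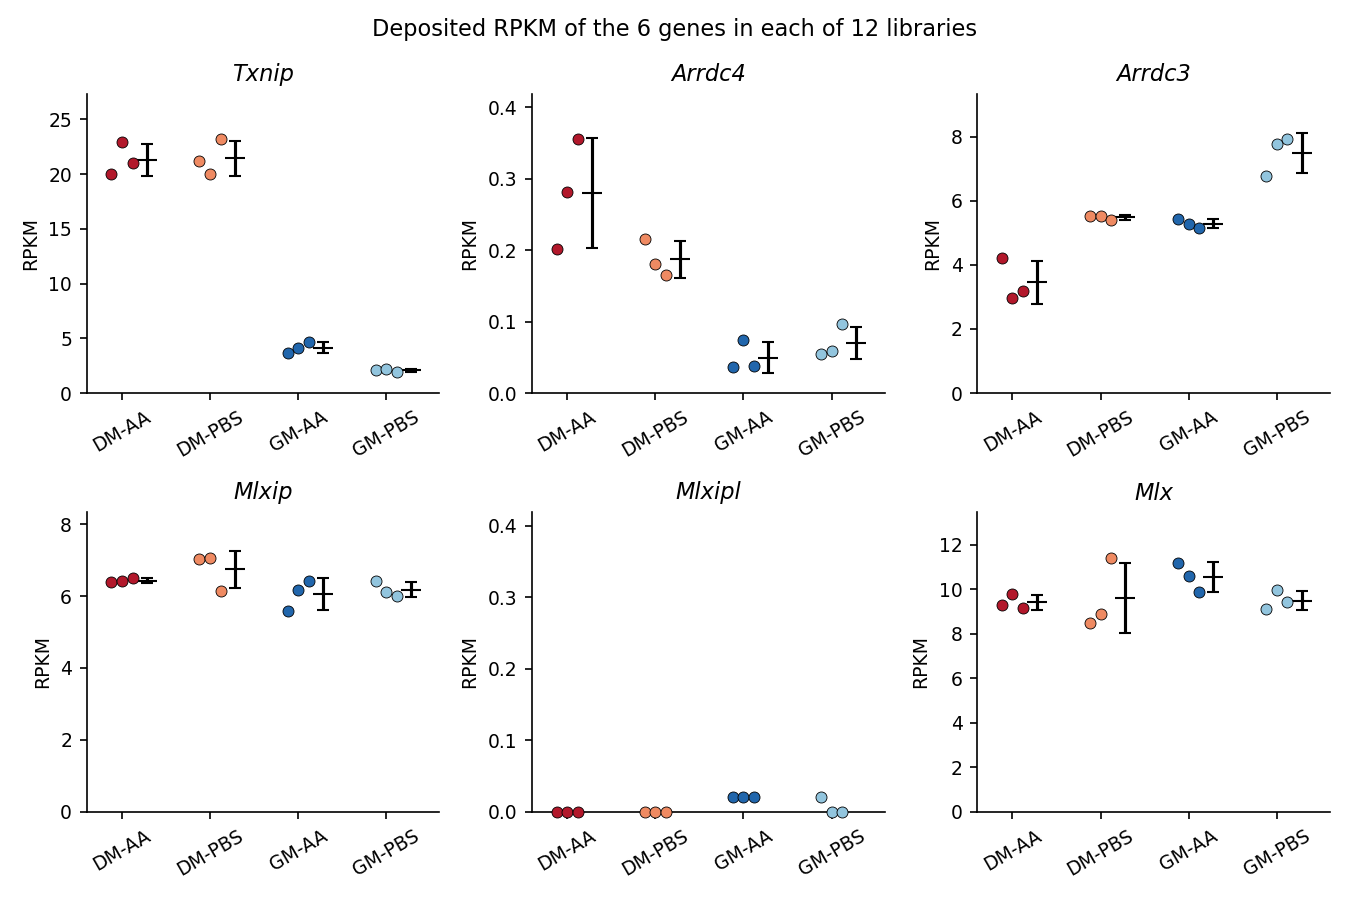
Deposited RPKM (y axis, linear from 0, own scale per panel, with Mlxipl drawn on the Arrdc4 scale) of the 6 genes in the 3 libraries of each group (x axis). Points are libraries and black bars are the mean and SD of 3; Mlxipl has no bar. Txnip and Arrdc4 were higher in differentiation medium, Txnip was higher in GM-AA than in GM-PBS, and Arrdc3 was lower with acetoacetate in both media.

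The study asked how acetoacetate, a ketone body, changes transcripts in proliferating and differentiating myoblasts. In growth medium Txnip rose 1.98-fold with acetoacetate, and Arrdc3 fell. The log2 fold change of Txnip was 0.98 ± 0.12 (SE, 95% interval 0.73 to 1.23; adjusted p = 3.03e-07, edgeR's quasi-likelihood test with Benjamini-Hochberg adjustment over 12230 genes), and it was higher in 3 of 3 libraries. Arrdc3 was 1.42-fold lower, with a log2 fold change of -0.51 ± 0.084 (95% interval -0.68 to -0.34; adjusted p = 2.8e-05). Mlxip, Mlx and Arrdc4 did not pass the 5% false discovery rate, so that 2 of 5 tested members were called where 20.7% of all tested genes were. Their log2 fold changes were -0.04 (95% interval -0.17 to 0.09) for Mlxip, 0.14 (-0.04 to 0.33) for Mlx and -0.48 (-1.72 to 0.76) for Arrdc4, an interval too wide to place Arrdc4 beside Txnip. The GM-PBS libraries of this comparison also enter the difference between media for which the genes were chosen.

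In differentiation medium acetoacetate lowered Arrdc3, and Txnip showed no detectable change. Arrdc3 was 1.60-fold lower, with a log2 fold change of -0.68 ± 0.096 (SE, 95% interval -0.88 to -0.49; adjusted p = 1.26e-06, edgeR's quasi-likelihood test with Benjamini-Hochberg adjustment), and it was the 1 member called of 5 tested, where 26.4% of all tested genes were called. The log2 fold change of Txnip was -0.02 ± 0.063, with a 95% interval of -0.15 to 0.11 (adjusted p = 0.84). How the Txnip effect differs between the media is given below as a description only. Mlxip (-0.08, 95% interval -0.21 to 0.04) and Mlx (-0.03, -0.22 to 0.16) had narrow intervals around 0. Arrdc4 had a log2 fold change of 0.55, with an interval of -0.12 to 1.22 (adjusted p = 0.232).

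Set side by side, the acetoacetate effect on Txnip was -0.02 in differentiation medium and 0.98 in growth medium, and that on Arrdc3 was -0.68 and -0.51 in that order of media (log2 fold changes). For Txnip the effect in differentiation medium minus that in growth medium was -1.0 ± 0.14 on the log2 scale (SE). This value is equal to the Txnip difference between media with acetoacetate minus that with PBS, the differences for which the genes were chosen, and it is therefore given as a description with no p-value. Over all tested genes, 5.24% were called for this difference (2.58% with a higher effect in differentiation medium and 2.67% with a lower one). The same subtraction gave -0.17 for Arrdc3, -0.04 for Mlxip, -0.18 for Mlx and 1.03 ± 0.7 for Arrdc4.

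Base composition moved with acetoacetate over all genes. The rank correlation between a library's deviation and the GC content of the gene was -0.177 to -0.0611 in the 6 acetoacetate libraries and 0.00528 to 0.211 in the 6 PBS libraries, a description across genes. The GC content was 48.3% for Txnip, 48.0% for Arrdc4, 40.6% for Arrdc3, 53.2% for Mlxip and 50.6% for Mlx. After removal of a trend with GC content and length, the acetoacetate effect in growth medium was 0.97 for Txnip and -0.59 for Arrdc3, and that on Arrdc3 in differentiation medium was -0.77. The calls on both genes stood in all alternatives tried, including the removal of each library.

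**Figure D2:**
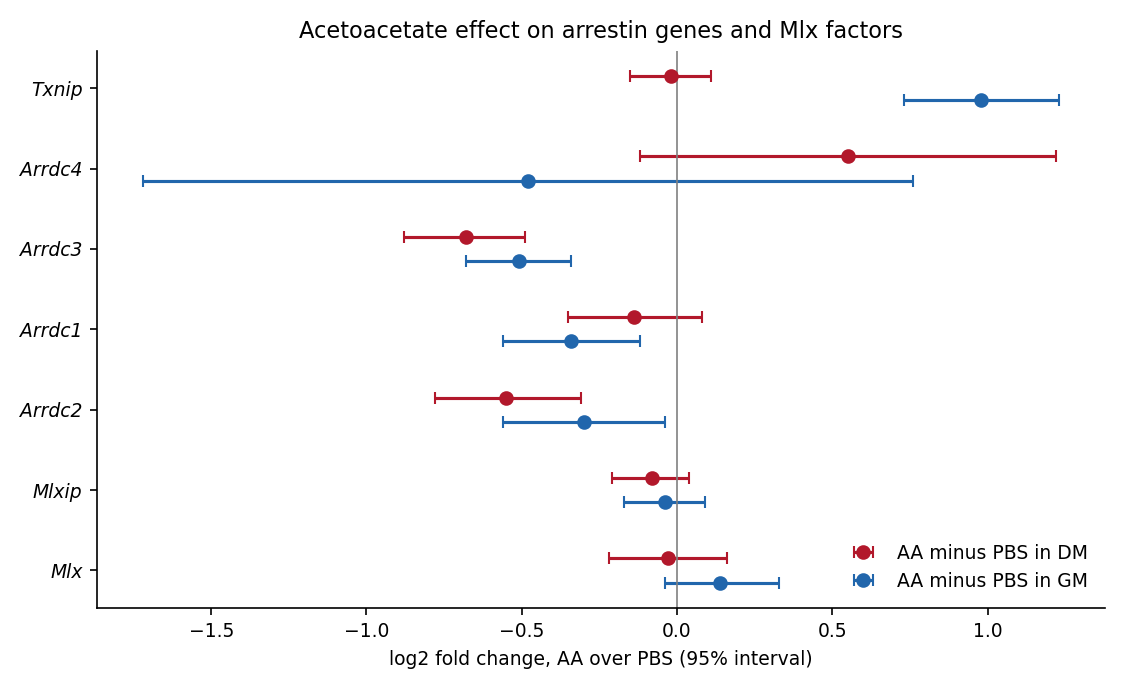
Log2 fold change of acetoacetate (AA) over PBS (x axis, log2 scale) for the alpha-arrestin genes and the Mlx factors tested (rows). Points are estimates over 3 libraries per group and bars are 95% intervals, in red for differentiation medium and in blue for growth medium. The Txnip points lie apart, at -0.02 and 0.98, while both Arrdc3 points lie below 0.

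Where genes overlap on opposite strands, reads cannot be assigned without strand, and the strand of the libraries is not given in the sources used here. In GENCODE M21 on GRCm38, Txnip (chr3:96557957-96561883, plus strand) shares 19.4% of its exon bases with Gm15441 on the opposite strand. Gm15441 had 0 to 2 reads per library in the table, against at least 70 for Txnip. Mlx (chr11:101087277-101092207, plus strand) shares 19.3% with Psmc3ip, which had 13 to 47 reads per library and a level of 1.06 to 3.52 RPKM. Exons of other genes covered 3.2% of Mlxip and 4.2% of Mlxipl, and none of Arrdc4 (chr7:68736995-68749241, minus strand) or Arrdc3 (chr13:80883384-80896042, plus strand).

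Few of the other arrestins passed the test with acetoacetate, and those that did were different genes in the 2 media. Nothing is read from counts this small. Of 5 other arrestin genes 4 were tested, and Arrdc5 had at most 1 read in a library. With acetoacetate in differentiation medium 0 were higher and 1 lower, where 12.6% of all tested genes were higher and 13.8% lower (median log2 fold change -0.09, against 0.00213 over all tested genes). The lower one was Arrdc2, another alpha-arrestin, at 3.14 ± 0.322 RPKM in DM-AA and 4.57 ± 0.356 RPKM in DM-PBS (SD, n = 3 each), a log2 fold change of -0.55 ± 0.11 (adjusted p = 0.00044). In growth medium 0 were higher and 2 lower, where 9.76% of all tested genes were higher and 11% lower (median -0.30, against -0.00336 over all tested genes). These were Arrb1, which encodes beta-arrestin, at -0.31 ± 0.053 (adjusted p = 4.88e-05) and Arrdc1, whose product acts in the budding of vesicles from the plasma membrane, at -0.34 ± 0.11 (adjusted p = 0.0234). The Arrdc1 call was lost without GM-AA replicate 2 or 3, or GM-PBS replicate 2 or 3, with adjusted p-values of 0.0739, 0.11, 0.0561 and 0.0756 in turn, and with DESeq2 (0.0709) or the GC trend removed (0.0982), which left 1. Arrdc2 in growth medium had a log2 fold change of -0.30 ± 0.13 (adjusted p = 0.0952), with GM-AA below GM-PBS in every library. By CPM, 17.6% of all tested genes had that order of libraries in growth medium.

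The NEDD4 family ligases are the enzymes that alpha-arrestins recruit. Of 9 genes 8 were tested. With acetoacetate, 0 were higher and 3 lower in differentiation medium, where 12.6% of all tested genes were higher and 13.8% lower. In growth medium 0 were higher and 2 lower, where 9.76% of all tested genes were higher and 11% lower. Wwp2 was lower in both, by a log2 fold change of -0.41 ± 0.055 (adjusted p = 4.98e-07) in differentiation medium and -0.26 ± 0.055 (adjusted p = 0.000598) in growth medium. Smurf1 was called beside it in each medium, at -0.23 ± 0.053 and -0.17 ± 0.051 in that order of media, and Nedd4 in differentiation medium at -0.13 ± 0.042 (adjusted p = 0.016). The median over the 8 was 0.01 in differentiation medium and 0.02 in growth medium. The Nedd4 call was lost without DM-AA replicate 2 (adjusted p = 0.0656) or DM-PBS replicate 3 (0.0519), and the Smurf1 call in growth medium without GM-AA replicate 2 (0.0523) or GM-PBS replicate 1 (0.238) or with the GC trend removed (0.12). In growth medium the lower count was 1 without GM-PBS replicate 1, and the higher count was 1 without GM-PBS replicate 3.

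Genes described as targets of MondoA, ChREBP and MLX, mostly in liver and tumour cells, were counted beside Txnip. Of 20 such genes, glycolytic and lipogenic enzymes in the main, 16 were tested. With acetoacetate in growth medium 1 was higher and 5 were lower, where 9.76% of all tested genes were higher and 11% lower (median log2 fold change -0.10). The lower ones included Acly, which makes cytosolic acetyl-CoA (-0.26 ± 0.049, adjusted p = 0.000188), Pfkfb3, which drives glycolysis through fructose 2,6-bisphosphate (-0.32 ± 0.072, adjusted p = 0.00157), Rgs16, a regulator of G protein signalling (-0.62 ± 0.15, adjusted p = 0.0029), and Tkt, transketolase (-0.29 ± 0.071, adjusted p = 0.00346). The higher one was Elovl6, a fatty acid elongase (0.18 ± 0.053, adjusted p = 0.015), a call lost without GM-AA replicate 1 (adjusted p = 0.0786) or GM-PBS replicate 2 (0.0594). The higher count was 2 without DM-AA replicate 1, any DM-PBS replicate or GM-PBS replicate 1, and 0 without GM-PBS replicate 2. Fasn was also called lower, a call lost without GM-AA replicate 1 or GM-PBS replicate 1 or 3, and with the GC trend removed.

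In differentiation medium 8 of these targets were lower and 1 higher with acetoacetate, where 12.6% of all tested genes were higher and 13.8% lower (median -0.18). Acly (-0.42 ± 0.047, adjusted p = 1.5e-08), Fasn (-0.39 ± 0.052, adjusted p = 5.11e-07), Acaca (-0.38 ± 0.058, adjusted p = 4.49e-06) and Scd1 (-0.17 ± 0.043, adjusted p = 0.00329), which act in the synthesis and desaturation of fatty acids, led the lower ones. The higher one was Rgs16 (0.36 ± 0.12, adjusted p = 0.0264), whose call was lost without DM-AA replicate 1 or 2 or DM-PBS replicate 1 or 3, with adjusted p-values of 0.0555, 0.165, 0.0532 and 0.102 in turn, and with DESeq2 (0.0992). The higher count was 0 without DM-AA replicate 2, DM-PBS replicate 1 or DM-PBS replicate 3. Among the lower genes, the Khk call was lost without any single DM-AA or DM-PBS replicate, and with DESeq2 or the GC trend removed. The Tkt call was lost without DM-AA replicate 2 or 3 or DM-PBS replicate 2, and with DESeq2 or the GC trend removed. The Hk2 call was lost without DM-PBS replicate 3 and the Elovl6 call without DM-PBS replicate 1. No test of the list as a whole was made.

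Among genes of glucose uptake and of the enzymes around glucose 6-phosphate, the sugar that MondoA senses, those that passed the test with acetoacetate were lower. Of 14 genes 13 were tested. In growth medium 0 were higher and 5 lower, where 9.76% of all tested genes were higher and 11% lower (median log2 fold change -0.16), led by Pgls of the pentose phosphate pathway (-0.43 ± 0.072, adjusted p = 4.54e-05), Slc2a1, which encodes GLUT1 (-0.30 ± 0.053, adjusted p = 7.06e-05), and Hk1, a hexokinase (-0.18 ± 0.043, adjusted p = 0.00303). In differentiation medium 0 were higher and 6 lower, where 12.6% of all tested genes were higher and 13.8% lower (median -0.13), led by Slc2a1 (-0.29 ± 0.057, adjusted p = 0.000186) and Hk2, the muscle hexokinase (-0.23 ± 0.059, adjusted p = 0.00377), which is also in the target list and whose call was lost without DM-PBS replicate 3 (adjusted p = 0.0561). Slc2a1, a transporter that TXNIP removes from the surface, stood at 58.4 ± 4.98 RPKM in DM-AA, 70.9 ± 2.25 RPKM in DM-PBS, 156 ± 12.5 RPKM in GM-AA and 191 ± 8.89 RPKM in GM-PBS (SD, n = 3 each). The lower count in growth medium was 3 without GM-PBS replicate 1 and 3 with the GC trend removed. In differentiation medium it was 2 without DM-AA replicate 3 and 3 without DM-PBS replicate 3, and the higher count was 1 without DM-AA replicate 1.

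For the thioredoxin system, which TXNIP binds, the counts lay near those of all genes. All 14 genes were tested. With acetoacetate, 3 were higher and 2 lower in differentiation medium, where 12.6% of all tested genes were higher and 13.8% lower. In growth medium 2 were higher and 1 lower, where 9.76% of all tested genes were higher and 11% lower. The median log2 fold change was -0.01 in differentiation medium and 0.02 in growth medium. The mitochondrial thioredoxin Txn2 was higher in both, at 0.27 ± 0.054 (adjusted p = 0.00025) in differentiation medium and 0.20 ± 0.051 (adjusted p = 0.00439) in growth medium, the second call being lost without GM-PBS replicate 3 (adjusted p = 0.0629). Txn1, the cytosolic thioredoxin that TXNIP is best known to bind, was higher in growth medium at 0.18 ± 0.049 (adjusted p = 0.00954), a call lost without GM-PBS replicate 1 (adjusted p = 0.0541). The higher count in growth medium was 1 without GM-PBS replicate 1 or 3. In differentiation medium it was 1 without DM-AA replicate 2 or 3 or DM-PBS replicate 3, and the lower count was 1 without DM-AA replicate 2. The lower count in growth medium was 0 with the GC trend removed.

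MLX belongs to the wider network of MYC and MAX factors, which bind the same E-box core. Of 10 network genes 9 were tested. With acetoacetate in growth medium 1 was higher and 5 were lower, where 9.76% of all tested genes were higher and 11% lower (median log2 fold change -0.38), with Myc at -0.77 ± 0.061 (adjusted p = 3.19e-11) and the MAX partners Mxi1 at -0.44 ± 0.062 (adjusted p = 3.11e-06), Mxd4 at -0.70 ± 0.10 (adjusted p = 3.37e-06) and Mnt at -0.38 ± 0.063 (adjusted p = 3.4e-05). In differentiation medium 2 were higher and 4 lower, where 12.6% of all tested genes were higher and 13.8% lower (median -0.24), with Mycl, a MYC relative, at 0.64 ± 0.074 (adjusted p = 3.75e-08) and Myc at -0.54 ± 0.07 (adjusted p = 2.45e-07). The higher count in growth medium was 2 without GM-AA replicate 1, and in differentiation medium it was 1 without DM-AA replicate 2 or 3 or DM-PBS replicate 3, and 1 with the GC trend removed. Mlx itself did not pass the test in either medium.

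Txnip is also a target of FoxO factors and of the glucocorticoid receptor, and genes of those pathways were counted for that reason. Of 17 genes 16 were tested. With acetoacetate, 2 were higher and 8 lower in differentiation medium, where 12.6% of all tested genes were higher and 13.8% lower (median log2 fold change -0.12). In growth medium 2 were higher and 6 lower, where 9.76% of all tested genes were higher and 11% lower (median -0.08). Fbxo32, a muscle ubiquitin ligase induced by FoxO, was lower at -0.63 ± 0.048 (adjusted p = 3.04e-12) in differentiation medium and -0.72 ± 0.049 (adjusted p = 9.22e-13) in growth medium. Trim63, the other FoxO-induced muscle ubiquitin ligase of the list, went the opposite way on few reads, with 8 to 15 reads per library in DM-AA, 2 to 7 in DM-PBS, 8 to 11 in GM-AA and 1 to 3 in GM-PBS. Its log2 fold change was 1.55 ± 0.43 in differentiation medium and 2.11 ± 0.55 in growth medium. No PBS library reached the 1.2 CPM of the expression filter, so Trim63 passed it through acetoacetate libraries alone. Its fold changes are therefore a description with no p-value, although the counts of higher genes above include it. Cited2, a transcriptional cofactor, was lower at -0.80 ± 0.055 (adjusted p = 3.73e-13) in differentiation medium and -0.52 ± 0.054 (adjusted p = 1.09e-08) in growth medium. Tsc22d3, the glucocorticoid-induced leucine zipper gene, was higher at 0.37 ± 0.058 (adjusted p = 7.28e-06) and 0.34 ± 0.065 (adjusted p = 0.000203) in that order of media. The lower count in differentiation medium was 5 without DM-PBS replicate 1 and 5 with DESeq2. The higher count was 1 in each medium when its 2 groups were fitted alone, and 1 in growth medium with DESeq2.

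Between media, Txnip had the largest fold change of the 5 tested members with PBS, and with acetoacetate the fold changes of Arrdc4 and Txnip differed by less than the SE of Arrdc4. Txnip was 10.1-fold higher in DM-PBS than in GM-PBS (log2 fold change 3.34 ± 0.093, SE) and 5.03-fold higher in DM-AA than in GM-AA (2.33 ± 0.081). Arrdc4 had log2 fold changes of 1.38 ± 0.45 with PBS and 2.41 ± 0.44 with acetoacetate, on the few reads given above. Arrdc3 was lower in differentiation medium, by log2 fold changes of -0.47 ± 0.083 with PBS and -0.64 ± 0.096 with acetoacetate. Mlxip differed by 0.10 ± 0.061 with PBS and 0.06 ± 0.062 with acetoacetate, and Mlx by -0.02 ± 0.09 and -0.19 ± 0.089. These contrasts chose the genes and are given as a description. Over all tested genes, 54.4% were called between the media with PBS (27% higher and 27.4% lower in differentiation medium) and 52.2% with acetoacetate (25.9% higher and 26.3% lower).

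Between media, the called Mlx factor targets went in both directions, as did the called genes among all tested genes. With PBS, 6 of the 16 tested targets were higher and 5 lower in differentiation medium (median log2 fold change 0.26), where 27% of all tested genes were higher and 27.4% lower. With acetoacetate 7 targets were higher and 5 lower (median 0.15), where 25.9% of all tested genes were higher and 26.3% lower. The glycolytic genes Hk2 (-1.94 ± 0.053, adjusted p = 6.53e-25), Pfkfb3 (-1.79 ± 0.086, adjusted p = 1.77e-18) and Ldha (-1.04 ± 0.045, adjusted p = 8.79e-20) were lower in DM-PBS than in GM-PBS. The lipogenic genes Elovl6 (0.98 ± 0.051, adjusted p = 1.83e-17) and Fasn (0.87 ± 0.053, adjusted p = 9.69e-16) were higher. Not all lipogenic targets were, since Me1, malic enzyme (0.01 ± 0.066, adjusted p = 0.924), and Acacb (0.76 ± 0.41, adjusted p = 0.12) did not pass, and the lower genes included the transcription factor gene Klf10 (-0.45 ± 0.057, adjusted p = 3.41e-08). Hk2 differed in the direction opposite to Txnip, at 9.25 ± 0.194 RPKM in DM-AA and 10.8 ± 0.926 RPKM in DM-PBS, against 37.7 ± 1.57 RPKM in GM-AA and 40.4 ± 1.02 RPKM in GM-PBS (SD, n = 3 each).

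Of the 13 tested genes of glucose uptake and glucose 6-phosphate, 1 was higher and 7 were lower in DM-PBS than in GM-PBS. The median log2 fold change over the 13 was -0.20, where 27% of all tested genes were higher and 27.4% lower. The same list counts held in DM-AA against GM-AA (median -0.19), where 25.9% of all tested genes were higher and 26.3% lower. The lower genes with PBS were the enzyme genes Hk1, Hk2, Gpi1, Pgls and H6pd and the transporter genes Slc2a1 and Slc2a3. Slc2a1 had a log2 fold change of -1.46 ± 0.055 (adjusted p = 3.14e-21) with PBS and -1.45 ± 0.056 (adjusted p = 4.77e-21) with acetoacetate. Slc2a3, which encodes GLUT3, had -1.36 ± 0.16 (adjusted p = 1.2e-08) with PBS. The transporter genes Slc2a4 (0.45 ± 0.38, adjusted p = 0.337), Slc2a6 (-0.11 ± 0.23, adjusted p = 0.712) and Slc2a8 (0.07 ± 0.12, adjusted p = 0.619) did not pass with PBS. The single higher gene was Slc2a10, another transporter, at 0.76 ± 0.27 (adjusted p = 0.0181) with PBS, and that count was 0 without DM-PBS replicate 2 or GM-PBS replicate 1, and with DESeq2.

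The remaining lists gave these counts in DM-PBS against GM-PBS, where 27% of all tested genes were higher and 27.4% lower. Of the other arrestins, 1 was higher and 1 lower, with Arrdc2 at 0.54 ± 0.11 (adjusted p = 0.000146) and Arrb1 at -1.07 ± 0.057 (adjusted p = 2.22e-17). Of the 8 tested genes of the NEDD4 family, 2 were higher and 3 lower. Of the 14 of the thioredoxin system, 4 were higher and 5 lower. Of the MYC and MAX network, 3 were higher and 4 lower, with Mycl at 2.11 ± 0.10 (adjusted p = 1.63e-18) and Mxd4 at 1.51 ± 0.077 (adjusted p = 1.07e-17), and the lower count was 2 without GM-PBS replicate 2. Of the FoxO and glucocorticoid targets, 11 were higher and 2 lower (median log2 fold change 0.41, against 0.00709 over all tested genes), with the sestrin genes Sesn1 at 1.63 ± 0.063 (adjusted p = 5.81e-21) and Sesn3 at 2.04 ± 0.11 (adjusted p = 1.33e-17). Fkbp5 and Ddit4 of this list went the other way by mean. Fkbp5 had 46.1 CPM in DM-PBS and 71.4 CPM in GM-PBS, and Ddit4 had 106 and 121 CPM. With acetoacetate the FoxO and glucocorticoid targets again had 11 higher and 2 lower (median 0.43, against 0.00578 over all tested genes). Fkbp5 had 48.3 CPM in DM-AA and 67.2 CPM in GM-AA, and Cited2 had 223 and 275 CPM. In that comparison 25.9% of all tested genes were higher and 26.3% lower.

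**Figure D3:**
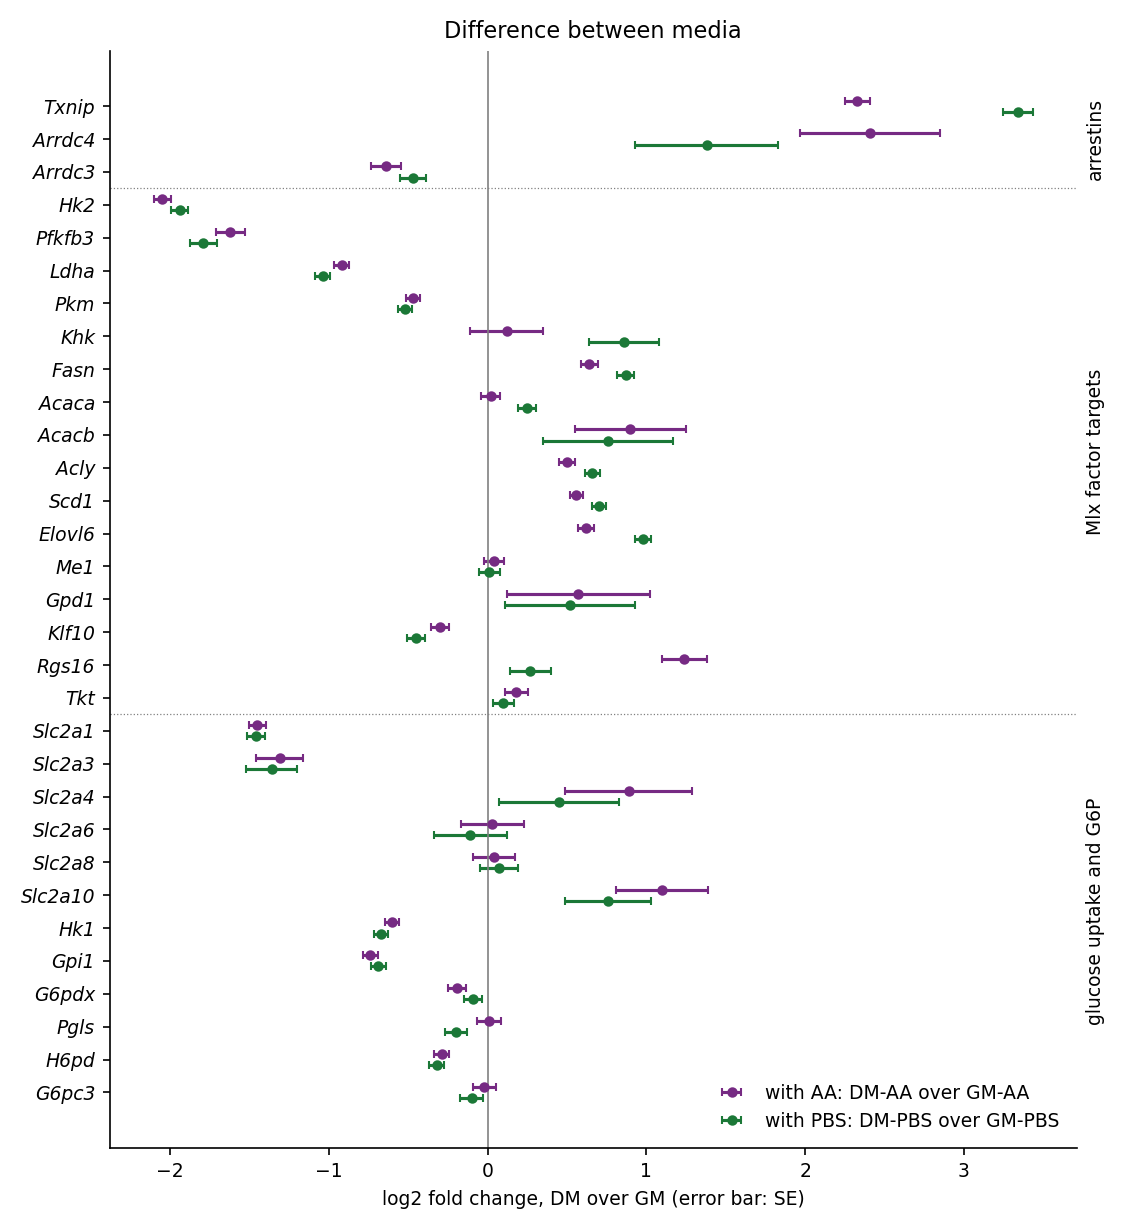
Log2 fold change of differentiation over growth medium (x axis, log2 scale) for the 3 arrestin genes, the tested Mlx factor targets and the tested genes of glucose uptake and glucose 6-phosphate (G6P), with Hk2 shown once. Points are estimates over 3 libraries per group and bars are SE, in purple with acetoacetate and in green with PBS. Txnip and Arrdc4 lie right of 0, while Hk2, Pfkfb3, Ldha, Slc2a1 and Slc2a3 lie left of 0 in both.

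Genes with a profile like that of Txnip were sought among 7348 genes with a symbol and a mean of at least 5 RPKM, by the root mean square difference of centred log2 CPM over the 12 libraries. Ogn, which encodes the matrix proteoglycan osteoglycin, was nearest at 0.111, with means of 270 CPM in DM-AA, 277 CPM in DM-PBS, 50.6 CPM in GM-AA and 27.0 CPM in GM-PBS. Txnip itself had 91.5, 93.0, 18.2 and 9.18 CPM in that order of groups. C1qtnf3, a secreted protein of the C1q and TNF family, followed at 0.201, with 93.1, 72.5, 16.2 and 8.21 CPM. The next were Cd200 (0.287), Daam2 (0.317), Lrrc17 (0.415), Car3 (0.419), Myog (0.420) and Mycl (0.447). By mean, all of these genes but Ogn were higher in DM-AA than in DM-PBS, which Txnip was not. The muscle genes Myog and Car3 had 135 and 103 CPM in DM-AA, against 70.2 and 47.6 CPM in DM-PBS. For Arrdc4 the nearest were the collagen VI genes Col6a2 (0.279) and Col6a1 (0.284), then Fmo1 (0.297), Traf4 (0.307) and Ch25h (0.310). The few Arrdc4 reads limit that order, since a prior count of 2 was added before the logarithm.

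**Figure D4:**
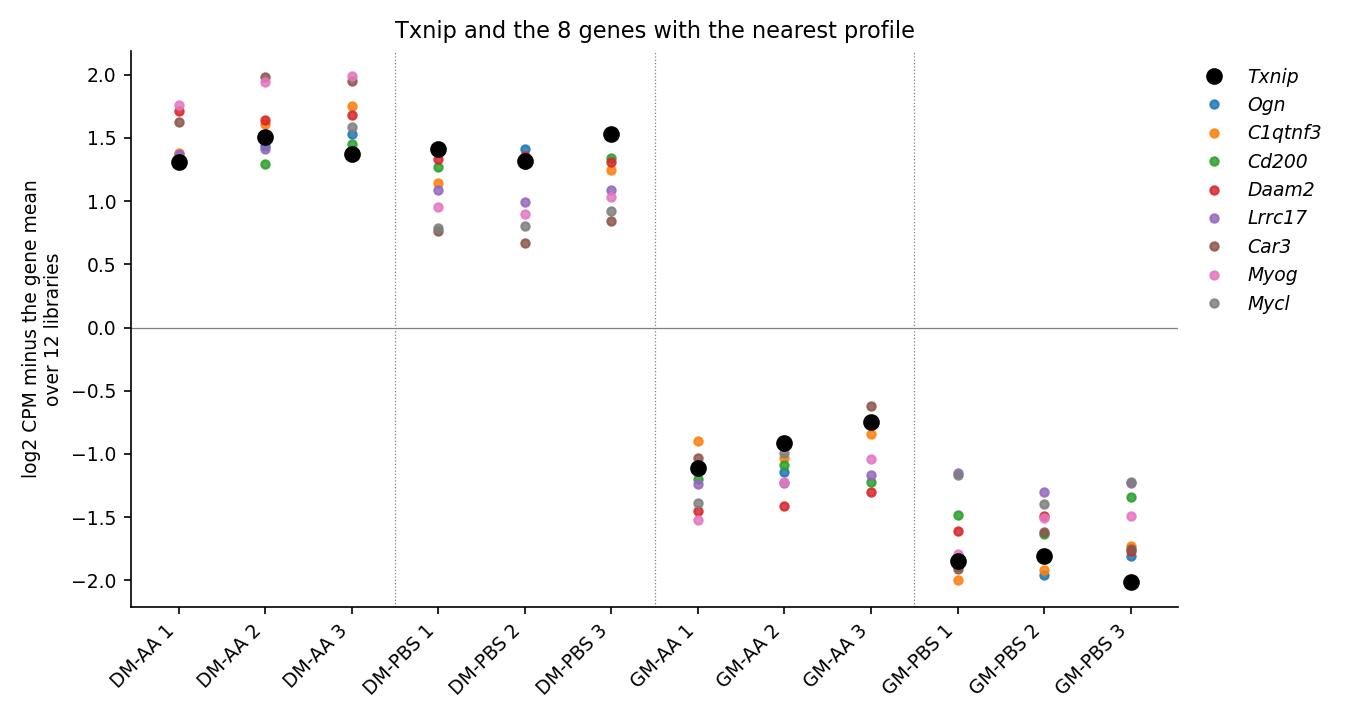
Centred log2 CPM (y axis, log2 scale, each gene minus its own mean over 12 libraries) of Txnip in black and of its 8 nearest genes in colour, for each library (x axis). Ogn and C1qtnf3 stay close to Txnip in all 4 groups, whereas Lrrc17, Car3, Myog and Mycl lie further below Txnip in DM-PBS.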

How the data were processed

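Transcript abundance was measured by RNA-seq in 12 libraries of mouse C2C12 cells, 3 in each of 4 groups taken from the titles. Per the submitters' processing notes, the aligner was BWA 0.5.9-r16 and the genome build mm9. How reads were assigned to genes, with which annotation and strand, is not given in the sources used here. Per the file headers, the authors deposited raw read counts and RPKM for 23446 genes. Recomputing RPKM from counts, lengths and a divisor per library matched within 0.0005%, and the counts made up 63.18% to 64.92% of that divisor. All value columns matched a sample (0 unmatched).

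Counts were tested with edgeR 4.0.16 in R. Genes were kept by filterByExpr (minimum count 10, which is about 1.2 CPM in 3 libraries), leaving 12230 genes, 5 of the 6 members among them. Libraries were scaled by TMM. A model of 4 group means was fitted to 12 libraries by quasi-likelihood (two-sided; common biological coefficient of variation 4.08%), with Benjamini-Hochberg adjustment over all tested genes at a 5% false discovery rate. The fit was tested on simulated data. SE is the absolute log2 fold change over the square root of F. Log2 CPM used a prior count of 2. Between libraries of a group, chi-square per degree of freedom was 1.46 to 2.94. Alternatives were DESeq2, other scalings, no filter, GC and length correction, a replicate block, 2 groups alone and removal of each library. Replicate numbers did not pair the libraries.

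The members, the lists and the tests were chosen with earlier results of these data known. In each comparison, the text names the 6 members and up to 4 called genes of each list with the smallest p, some of them left out where calls were lost, plus genes needed beside small counts. GC content and overlaps came from GENCODE M21 on GRCm38 (99.3% of tested genes had a GC content), while reads were aligned to mm9, and promoter windows came from RefSeq on GRCm38.p6. Exact Poisson intervals are at 95%, and a group at 0 allows 3 counts.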

Additional observations from a re-analysis of the deposited data

Results flagged for a closer look

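The acetoacetate effect differed between differentiation and growth medium for 5 genes of the pathway lists and 3 of 6 myoblast markers. This is by the test of the difference itself (edgeR's quasi-likelihood test with Benjamini-Hochberg adjustment), which called 5.24% of all tested genes. The pathway lists held 4 to 16 tested genes each, and nothing is read from these counts. For Rgs16 the difference was 0.97 ± 0.19 on the log2 scale (SE; adjusted p = 0.00126), with effects of 0.36 in differentiation medium and -0.62 in growth medium, and for Elovl6 it was -0.36 ± 0.072 (adjusted p = 0.00148), with effects of -0.18 and 0.18 in that order of media. Both are Mlx factor targets in the list. The call in differentiation medium was lost for Elovl6 without DM-PBS replicate 1 (adjusted p = 0.0829). For Mxd3, a MAX partner, the difference was 0.64 ± 0.13 (adjusted p = 0.00203), with effects of 0.09 and -0.54, and for Arrb1 it was 0.38 ± 0.081 (adjusted p = 0.00303), with effects of 0.07 and -0.31. For Cited2 it was -0.29 ± 0.078 (adjusted p = 0.0211), with effects of -0.80 and -0.52. The Cited2 call was lost without DM-AA replicate 3 (adjusted p = 0.063), DM-PBS replicate 2 (0.105), GM-AA replicate 3 (0.078) or GM-PBS replicate 2 (0.0645).

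Among the myoblast markers, the difference was 0.40 ± 0.07 for Myod1 (adjusted p = 0.000341), with effects of 0.06 and -0.34 in that order of media. It was 0.59 ± 0.15 for Myog (adjusted p = 0.0105), with effects of 0.94 and 0.35, a call lost without GM-AA replicate 1 (adjusted p = 0.051) or GM-PBS replicate 3 (0.0602). For Myf5 it was -0.37 ± 0.099 (adjusted p = 0.0207), with effects of 0.27 and 0.64, a call lost without DM-AA replicate 1 (0.066), GM-AA replicate 3 (0.0966) or GM-PBS replicate 1 (0.0618). Txnip is not counted among these genes. Its difference of -1.0 ± 0.14 is a description, because the genes were chosen on the Txnip difference between media. No group exceeded 3 libraries, so single libraries were not tested as outliers.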

How the results depend on the processing

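Of the values on the 6 members under the alternatives, 489 kept their direction and side of the threshold or moved by less than the spread, and 2 moved. Both were the descriptive Arrdc4 difference between media, which ran from 1.23 to 1.67 with PBS and from 2.20 to 2.81 with acetoacetate (log2 fold changes) as each library was left out, the highest values being without GM-PBS replicate 3 and without GM-AA replicate 2. Txnip with acetoacetate in growth medium ran from 0.89 to 1.07 (adjusted p 7.45e-15 to 1.4e-05 over 20 settings). Of the counts over all genes, 99 stayed within 1.5 times, and leaving out each library gave 2384 to 3347 for acetoacetate in differentiation medium, 1838 to 2578 in growth medium and 456 to 645 for the difference. Of the list counts, 1510 stayed within 1.5 times and 74 moved; of the listed genes, 194 values lost the call and 3875 did not. The myoblast markers were added to these after the data were seen. The difference could not be fitted on 2 groups alone. No setting moved the median of all genes by more than 0.1.

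Replicate numbers are shared by the groups, but 18 same-number pairs correlated at -0.0676 to 0.0823, and 2 of 12 libraries correlated best with their own number. With the replicate block, 3109 genes were called for acetoacetate in differentiation medium, 2444 in growth medium and 590 for the difference, and Txnip in growth medium had 0.98 (adjusted p = 6.5e-07). Depth limits Arrdc4 and Mlxipl, which had at most 18 and 1 reads in a library.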

Other observations

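Genes other than Txnip whose RefSeq promoter window holds the paired E-box were examined as a set defined after the data were seen. Of 68 such genes in the table, 35 were tested. With acetoacetate, 4 were higher and 2 lower in differentiation medium (17.1% called, against 26.4% of all tested genes; median log2 fold change 0.05), and 4 were higher and 3 lower in growth medium (20% called, against 20.7%; median -0.03). For the difference of the acetoacetate effects, 0 of the 35 were called by edgeR's quasi-likelihood test and 0 by DESeq2, against 5.24% of all tested genes. With edgeR, 9 of the 35 had an unadjusted p under 0.05. The share of all tested genes under that unadjusted limit was not counted, so the 9 cannot be set against the 5.24%. Between media, 11 were higher and 13 lower in DM-PBS than in GM-PBS (68.6% called, against 54.4%), and 10 were higher and 10 lower in DM-AA than in GM-AA (57.1%, against 52.2%). Leaving out single libraries moved the number called from 2 to 7 in differentiation medium, with 3 without DM-AA replicate 2 and 2 without DM-PBS replicate 1, and from 4 to 9 in growth medium, with 4 without GM-AA replicate 3. Counts are a description, and no test of the set was made.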
